A study of Homo sapiens with 8 samples.

Results

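The MYC and MXD network is the set of basic helix-loop-helix leucine zipper transcription factors that share the partner MAX. The genes described are the activators MYC, MYCN and MYCL, the partner MAX, the antagonists MXD1, MXD3, MXD4 and MXI1, and the 2 further antagonists MNT and MGA. They were taken from the table of gene levels by name, with earlier results of these data known, and make up 10 of 35940 gene symbols. Each had 1 Ensembl row, and all 10 passed the filter on low values.

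A MYC protein joined to MAX binds DNA at the E-box and recruits histone acetyltransferases, and its best known targets drive ribosome production, metabolism and the cell cycle. MXD proteins, MXI1 and MNT join the same MAX partner at the same sites and bring the SIN3 histone deacetylase complex, while MGA carries MAX into a Polycomb complex called PRC1.6. Pluripotent stem cells depend on MYC and MYCN, MYCN is the family member best known in neural progenitors, and MXD genes are known to go up as many cell types differentiate.

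The cells were ESI017, a human embryonic stem cell line of wild-type genotype, so every value comes from 1 line. They were seeded in a stem cell maintenance medium with ROCK inhibitor and were moved 24 h later to the serum-free neural medium N2B27 with 10 µM SB and 100 nM LDN, abbreviations that are commonly used for inhibitors of Nodal/activin and BMP receptors. Recombinant WNT3A protein was added at 34 h (300 ng/mL in the design text), and poly(A) RNA was sequenced at 34, 42, 50 and 72 h, which is 0, 8, 16 and 38 h after WNT3A. There were 2 libraries per time point, replicates 1 and 2, also labelled batch 1 and batch 2, and the design text describes the repeat as biologically independent. All groups carried N2B27, SB and LDN, and cells kept without WNT3A were not analysed here, so elapsed time and WNT3A cannot be told apart in any comparison below.

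Levels are TPM (transcript abundance scaled for length and library total), so levels of different genes can be set side by side. Changes are differences of log2(TPM + 1) given with their standard error from limma, and a gene was called changed at a Benjamini-Hochberg adjusted p under 0.05 over 14908 tested genes. The number of reads behind a value is unknown. These were bulk samples, so fewer cells with a transcript and less of it per cell cannot be told apart.

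The promoters of the network were searched for 2 motifs because MYC, MXD and MNT proteins bind the E-box and because WNT signalling acts through TCF/LEF factors. The windows were RefSeq promoters on GRCh38.p14, from 250 bases before to 50 after a transcript start, and 14 windows of 9 of the 10 genes were matched. MYC was not searched. The E-box was searched as CACGTG, which reads the same on both strands, and was in 2 of the 14 windows, in MXD4 and MNT, against 7.26% of all 35116 windows. The TCF/LEF motif was searched as CTTTGAN on both strands, and was in 2 of the 14 windows, in MYCN and MXD3, against 12.8% of all windows. No window held both motifs. A match is a run of letters and was not tested as a binding site. Stretches outside the exons of GENCODE release 29 are shown, 5′ to 3′ on the strand of the gene, for the 4 genes with a match, in capitals, and for MYCL, the gene with the highest rise, whose window held neither motif.

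MYCL, chr1:39902014-39902133, minus strand: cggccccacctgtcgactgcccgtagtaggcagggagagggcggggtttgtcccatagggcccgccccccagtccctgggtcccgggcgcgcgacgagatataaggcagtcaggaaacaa
MYCN, chr2:15940430-15940549, plus strand: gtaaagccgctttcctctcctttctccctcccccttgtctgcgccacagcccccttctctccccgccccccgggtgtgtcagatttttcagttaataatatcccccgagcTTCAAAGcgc
MXD4, chr4:2262295-2262359, minus strand: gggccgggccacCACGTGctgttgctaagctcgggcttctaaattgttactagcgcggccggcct
MXD3, chr5:177312876-177312995, minus strand: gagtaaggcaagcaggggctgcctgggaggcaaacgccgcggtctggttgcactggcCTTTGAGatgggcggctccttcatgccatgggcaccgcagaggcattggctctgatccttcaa
MNT, chr17:2401191-2401310, minus strand: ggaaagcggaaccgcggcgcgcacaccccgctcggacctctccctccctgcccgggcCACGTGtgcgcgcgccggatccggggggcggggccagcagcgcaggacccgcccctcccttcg

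The MXD4 E-box began 238 bases before the RefSeq start and the MNT E-box 193 bases before. The MYCN match, on the opposite strand of the gene, began 10 bases before its start, and the MXD3 match 186 bases before. By GENCODE the MYCN, MXD4, MXD3 and MNT stretches lie upstream of the gene, and the MYCL stretch lies in an intron of the most upstream MYCL transcript and upstream of the others.

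The number of genes at 1 TPM or more ran from 13860 to 14004 over the libraries. Spearman correlations between libraries of a time point were 0.980 to 0.984. Between libraries of different time points they were 0.933 to 0.982, so the ranges overlapped. The labelled line is pluripotent, and the pluripotency genes POU5F1 and DNMT3B were at 207 TPM or more in all 8 libraries, while NANOG was at 2.77 TPM or lower. The summed level of 6 pluripotency markers went from 3498 and 3600 TPM at 34 h to 1915 and 1990 TPM at 72 h. That of 6 neural progenitor markers went from 170 and 176 to 358 and 393 TPM. Most of the neural progenitor sum was NES, which averaged 135 TPM at 34 h and 229 TPM at 72 h. SOX1, PAX6, NES and CDH2 were raised at 72 h. SOX3 was not called (21.2 to 19.9 TPM), and HES5, at 0.484 TPM or lower, was not tested. The 5 mesoderm markers summed to 1.70 and 1.71 TPM at 34 h, 9.27 to 14.0 TPM at the middle times, then 3.07 and 3.39 TPM, with MSGN1 at 0 throughout. The 4 endoderm markers, nearly all FOXA2, went from 12.2 and 13.6 TPM to 0.598 and 0.866 TPM in sum, with SOX17 at 0 throughout. The 4 surface ectoderm and amnion markers, nearly all KRT7, went from 35.6 and 40.7 to 5.16 and 7.33 TPM. Within the pluripotency list TDGF1 fell from 764 to 4.54 TPM while SOX2 rose from 217 to 340 TPM (limma, adjusted p = 2.17e-06 and 0.00117). Summed levels were 2.89 to 8.05 TPM for 4 neural crest markers and 182 to 318 TPM for 4 neuronal markers. PAX3 was raised at 72 h and FOXD3 lowered at 42, 50 and 72 h. Among the neuronal markers STMN2 (0.288 to 7.56 TPM) and DCX were raised at 72 h, and STMN2 already at 42 h. Most of the neuronal sum was TUBB3, which averaged 235 TPM at 34 h and 185 TPM at 72 h. TUBB3 and ELAVL3 were not called at 72 h. Markers were also called at the early times: TBXT, CDH2 and STMN2 were raised and FOXD3 and DNMT3B lowered at 42 h. At 50 h SOX1, DCX, LIN28A, MIXL1 and the proliferation marker MKI67 were raised and TDGF1, POU5F1, FOXA2 and KRT7 lowered as well. These shifts moved with time together with the changes below at 42, 50 and 72 h, and their part in those changes was not tested.

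Over the 4 time points MYC, MYCL, MXD4 and MXI1 changed by limma's moderated F-test, 4 of the 10 genes against 17.4% of all tested genes, and the count was 1 without either 72 h library. The F-test call of MXI1 was lost with TMM rescaling (adjusted p = 0.0522, limma) and quantile normalization (adjusted p = 0.0526, limma). With a variance without a mean trend the F-test calls of MYC and MXI1 were both lost (adjusted p = 0.0576 and 0.0691, limma). Leaving out 1 library before 72 h could also end the F-test call of either gene. At 42 and 50 h MYCL was the single gene of the network that passed the test, and at 72 h MYC had fallen while MYCL, MXD4 and MXI1 were above their 34 h levels.

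**Figure D1:**
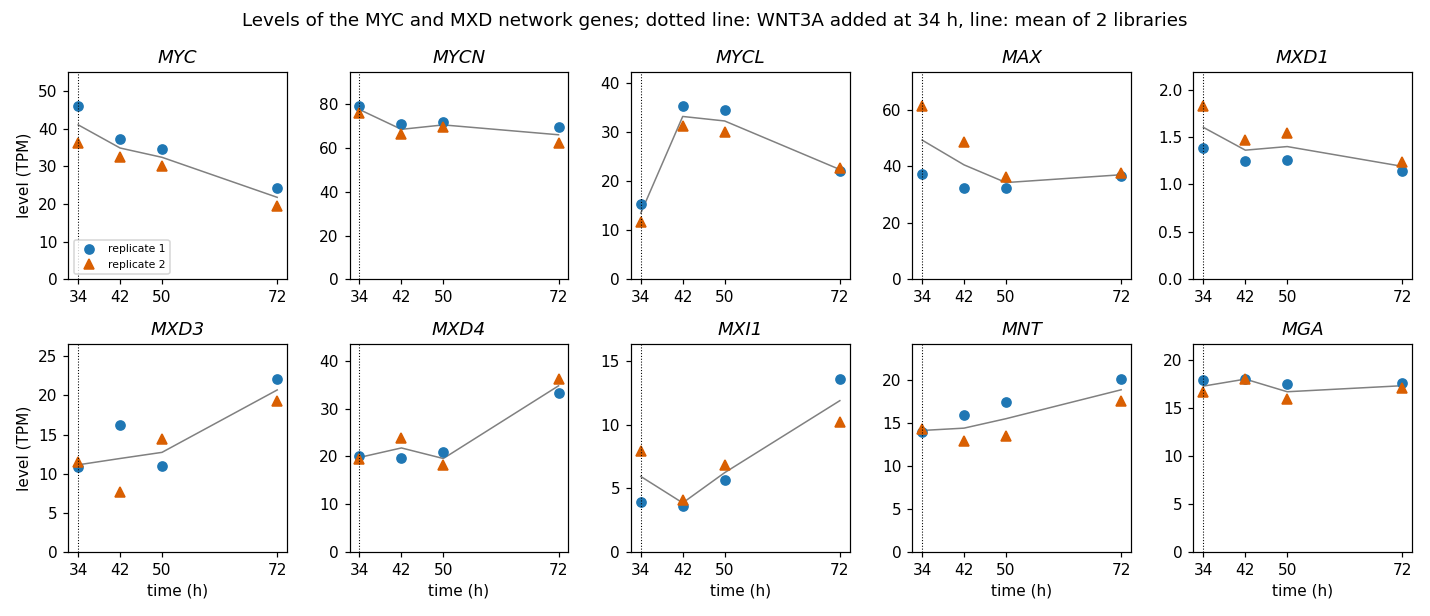
Level of each gene of the network in TPM (vertical axis, from 0, with its own scale in each panel) against time in h; circles are replicate 1, triangles replicate 2, the line joins the means of the 2 libraries and the dotted line marks WNT3A addition at 34 h. MYCL stands at 31.1 to 35.2 TPM at 42 h against 11.7 and 15.3 TPM at 34 h, MYC is lowest at 72 h, and MXD4, MXD3 and MXI1 are highest at 72 h.

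MYC, the founding member of the family and a known target of WNT signalling in several tissues, fell over the course. Its level was 45.9 and 36.2 TPM at 34 h, 37.2 and 32.6 by 42 h, 34.7 and 30.2 by 50 h and 24.2 and 19.4 by 72 h, replicate 1 first. Replicate 1 was above replicate 2 at all 4 times, and the level went down at each step within both replicates. Both 72 h libraries were below the other 6, and across replicates the libraries of neighbouring earlier times overlapped. At 72 h the change against 34 h was -0.88 ± 0.16 (limma, adjusted p = 0.00644), and it was -0.90 and -0.86 within replicates 1 and 2. Without the second 72 h library the change was -0.73 and the adjusted p rose to 0.0517 (limma). In the first hours after WNT3A no change of MYC passed the test: -0.22 ± 0.16 at 42 h (limma, adjusted p = 0.658) and -0.32 ± 0.16 at 50 h (limma, adjusted p = 0.317). Most of the difference lay between 50 and 72 h, where the change was -0.56 ± 0.16 (limma, adjusted p = 0.0845), and with the replicate number as a block the adjusted p was 0.0249 (limma).

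MYCN was the most abundant gene of the network in every library. It stood at 79.0 and 76.1 TPM at 34 h, 70.8 and 66.2 by 42 h, 71.7 and 69.4 by 50 h and 69.6 and 62.5 by 72 h. The 34 h libraries were above the other 6, which overlapped. The change at 72 h was -0.23 ± 0.10, with a 95% interval from -0.45 to -0.0066, and did not pass the test (limma, adjusted p = 0.126). MYCN was higher than 85.6% of tested genes by its mean level, MYC than 69.5% and MYCL than 63.1%.

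MYCL, the least studied of the 3 activators and a gene used in place of MYC in some reprogramming mixtures, rose first and most. Its level was 15.3 and 11.7 TPM at 34 h, 35.2 and 31.1 by 42 h, 34.5 and 30.0 by 50 h and 22.1 and 22.7 by 72 h. The 42 and 50 h libraries overlapped each other and were above both 72 h libraries, which were in turn above both 34 h libraries. At 42 h the change was 1.25 ± 0.15 (limma, adjusted p = 0.00416), and at 50 h it was 1.21 ± 0.15 (limma, adjusted p = 0.00283). MYCL was 1 of 10 genes of the network called raised at 42 h, against 1.78% of all tested genes, and 1 of 10 at 50 h, against 3.52%. The mesoderm marker TBXT had a like course, with means of 0.994, 9.65, 8.23 and 1.74 TPM at the 4 times, and its part in the MYCL result was not tested. With the 34 and 42 h libraries fitted alone, the adjusted p of the 42 h rise was 0.0521 (limma).

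At 72 h MYCL was still above 34 h by 0.70 ± 0.15 (limma, adjusted p = 0.0129). That call was lost without 1 of 3 libraries: the adjusted p was 0.0785 without the second 34 h library, 0.0644 without the first 72 h library and 0.0719 without the second (limma). The step down from 50 to 72 h was -0.51 ± 0.15 and did not pass the test (limma, adjusted p = 0.0903). No gene of the network was called between 42 and 50 h, where 0.0939% of all tested genes were called; at an unadjusted p under 0.05 in limma the counts were 0 of 10 and 1394 of 14908.

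**Figure D2:**
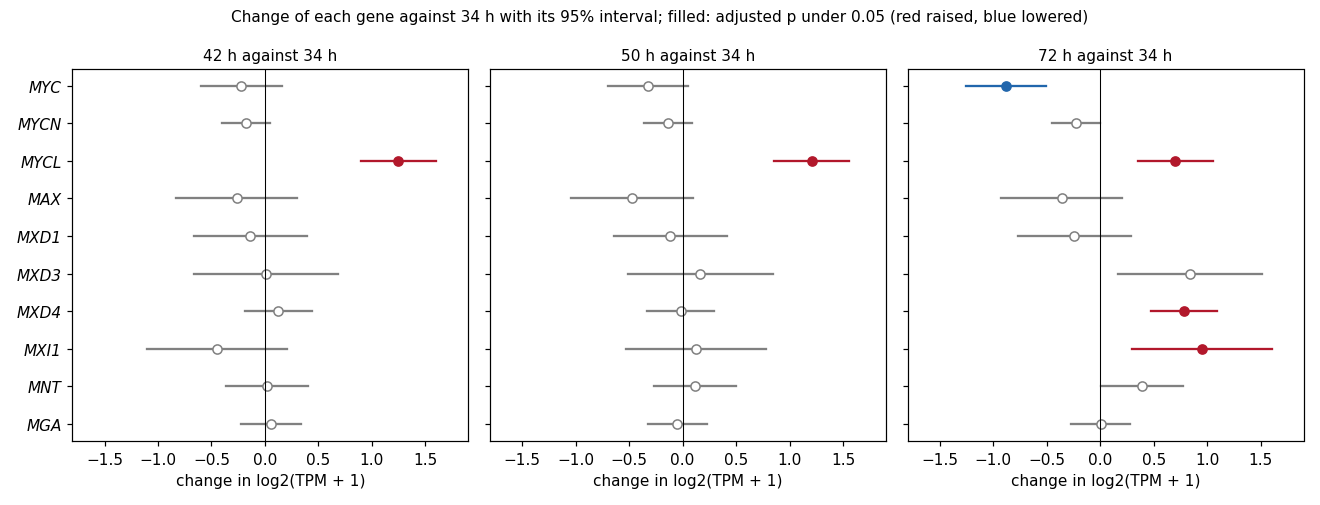
Change of each gene against 34 h in log2(TPM + 1) (horizontal axis) at 42, 50 and 72 h, as a point with its 95% interval from limma; filled points passed an adjusted p of 0.05 and are red where raised and blue where lowered. MYCL is the filled point at 42 h (1.25) and 50 h (1.21), and MYC (-0.88), MYCL (0.70), MXD4 (0.78) and MXI1 (0.95) are filled at 72 h.

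The make-up of the activators shifted with these changes. MYC was 31.0% ± 2.55 (SD, n = 2) of the summed TPM of MYC, MYCN and MYCL at 34 h, 25.5% ± 0.637 at 42 h, 24.0% ± 0.954 at 50 h and 19.7% ± 1.63 at 72 h. MYCL went from 10.2% ± 1.02 at 34 h to 24.3% ± 0.433, 23.8% ± 0.965 and 20.4% ± 1.84 at the later times, and MYCN held 50.2% to 59.9% on average. MYC was thus above MYCL at 34 h, and the levels of the 2 genes overlapped at 42, 50 and 72 h. The summed level of the 3 was 132 ± 11.4, 137 ± 9.43 and 135 ± 8.05 TPM at 34, 42 and 50 h and 110 ± 7.95 TPM at 72 h (SD, n = 2), and the 2 libraries at 72 h were below the other 6.

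MAX, the partner with which the other proteins of the network bind the E-box, showed no change that passed the test. It was at 37.4 and 61.2 TPM at 34 h, 32.4 and 48.7 by 42 h, 32.3 and 36.3 by 50 h and 36.5 and 37.6 by 72 h. Replicate 2 was higher than replicate 1 at all 4 times, by more at 34 and 42 h. Both 50 h libraries were below those of 34 and 72 h, and the other pairs of times overlapped. The change at 72 h was -0.36 ± 0.25 (limma, adjusted p = 0.327), made of -0.035 within replicate 1 and -0.69 within replicate 2. Per unit of summed TPM of the other 9 genes, MAX was 0.246 ± 0.0941 at 34 h and 0.173 ± 0.0136 at 72 h (SD, n = 2). MAX overlaps FNTB on the opposite strand, which averaged 15.9 TPM, and whether the counting used strand is not given in the sources used here.

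Among the MXD antagonists, MXD4 had the clearest rise. MXD4 stood at 20.0 and 19.5 TPM at 34 h, 19.7 and 23.9 by 42 h, 20.8 and 18.3 by 50 h and 33.3 and 36.2 by 72 h. Both 72 h libraries were above the other 6, and the earlier time points overlapped. The change at 72 h against 34 h was 0.78 ± 0.14 (limma, adjusted p = 0.00461), and against 50 h it was 0.80 ± 0.14 (limma, adjusted p = 0.0114). Between 50 and 72 h MXD4 was 1 of 10 genes of the network called raised, against 2.92% of all tested genes, and 0 of 10 were called lowered, against 4.41%. The 50 to 72 h call was lost with those 2 time points fitted alone (adjusted p = 0.0557, limma) and without the second 50 h, first 72 h or second 72 h library (adjusted p = 0.0688, 0.0687 and 0.0848, limma). The rise against 34 h kept its call without any one library.

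MXI1, also called MXD2, had a higher change at 72 h and a weaker call. Its level was 3.90 and 7.97 TPM at 34 h, 3.62 and 4.09 by 42 h, 5.66 and 6.80 by 50 h and 13.6 and 10.2 by 72 h. Both 72 h libraries were above the other 6, but the 34 h libraries were far apart and spanned the range of the 42 and 50 h libraries except the lowest 42 h value. The change against 34 h was 0.95 ± 0.28 (limma, adjusted p = 0.0448), with 1.575 within replicate 1 and 0.32 within replicate 2. Over 19 alternative settings the adjusted p ran from 0.0134 to 0.542, and 13 of them ended the call, with adjusted p from 0.0567 (limma). Without the first 34 h library the change was 0.51 with an adjusted p of 0.202, and leaving out a 72 h library gave 0.219 and 0.0853 (limma). Leaving out a 42 or 50 h library gave an adjusted p between 0.0579 and 0.063 (limma).

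MXD3, an antagonist known for its expression in proliferating neural progenitors, was at 10.8 and 11.5 TPM at 34 h, 16.2 and 7.65 by 42 h, 11.0 and 14.5 by 50 h and 22.1 and 19.3 by 72 h. Both 72 h libraries were above the other 6, and the 42 h libraries spanned both neighbouring times. The change at 72 h was 0.84 ± 0.29 and did not pass the test (limma, adjusted p = 0.0739). It passed where the 34 and 72 h libraries were fitted alone (adjusted p = 0.0153, limma) and without the first or the second 42 h library (adjusted p = 0.0142 and 0.0135, limma). MXD3 overlaps RAB24 on its own strand, at 14.5 TPM, and PRELID1 on the other, at 262 TPM, so shared reads may enter its values.

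MXD1, the first described MXD protein and known from maturing blood and epithelial cells, was the least abundant gene of the network, between 1.15 and 1.82 TPM in all 8 libraries. Replicate 2 was above replicate 1 at each time. At 72 h it differed from 34 h by -0.24 ± 0.23 (limma, adjusted p = 0.482), and 9.60% of tested genes had a lower mean. MXD1 overlaps SNRNP27 on the same strand, which averaged 33.7 TPM.

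MNT, the antagonist that is present in most cells whether or not they divide, was at 13.9 and 14.3 TPM at 34 h, 15.8 and 12.9 by 42 h, 17.4 and 13.5 by 50 h and 20.1 and 17.6 by 72 h. The 72 h libraries were above the rest by a narrow margin. The change at 72 h was 0.39 ± 0.17, with a 95% interval from 0.006 to 0.77, and did not pass the test (limma, adjusted p = 0.13). MGA, the scaffold of PRC1.6, lay between 15.9 and 18.1 TPM in all 8 libraries. Both 42 h libraries, at 18.0 and 18.1 TPM, were just above the other 6, and the other times overlapped. Against 34 h its 72 h level differed by 0.0041 ± 0.12 with a 95% interval from -0.27 to 0.28 (limma, adjusted p = 0.986), and the sign turned under 3 other scalings.

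At 72 h against 34 h 4 of the 10 genes were called, against 24% of all tested genes: 3 were raised, against 12.7%, and 1 was lowered, against 11.3%. The count of 4 was 2 without the first and 1 without the second 72 h library. The median change of the 10 genes was 0.20, against 0.061 over all tested genes. The order of the levels also moved. At 34 h it ran from MYCN through MAX and MYC to MXD4, MGA, MNT, MYCL, MXD3, MXI1 and MXD1, with overlap of neighbours at MAX and MYC and at MNT and MYCL. At 72 h MXD4 came next after MYCN and MAX, and MYCL, MYC, MXD3, MNT and MGA followed with each neighbour overlapping the next, above MXI1 and MXD1.

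The 6 antagonists summed to 69.9 ± 2.65 TPM at 34 h, 71.3 ± 4.68 at 42 h, 72.1 ± 2.30 at 50 h and 105 ± 4.43 at 72 h (SD, n = 2). Divided by the summed level of the 3 activators, that was 0.532 ± 0.066, 0.522 ± 0.00177 and 0.534 ± 0.0147 at the first 3 times and 0.952 ± 0.0284 at 72 h. The 72 h libraries, at 0.932 and 0.972, were above the other 6, which ran from 0.485 to 0.578. For the MXD genes and MXI1 alone the ratio was 0.293 ± 0.0501 at 34 h and 0.623 ± 0.024 at 72 h. The ratios are a description and were not tested. They compare transcripts, not proteins or dimers.

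**Figure D3:**
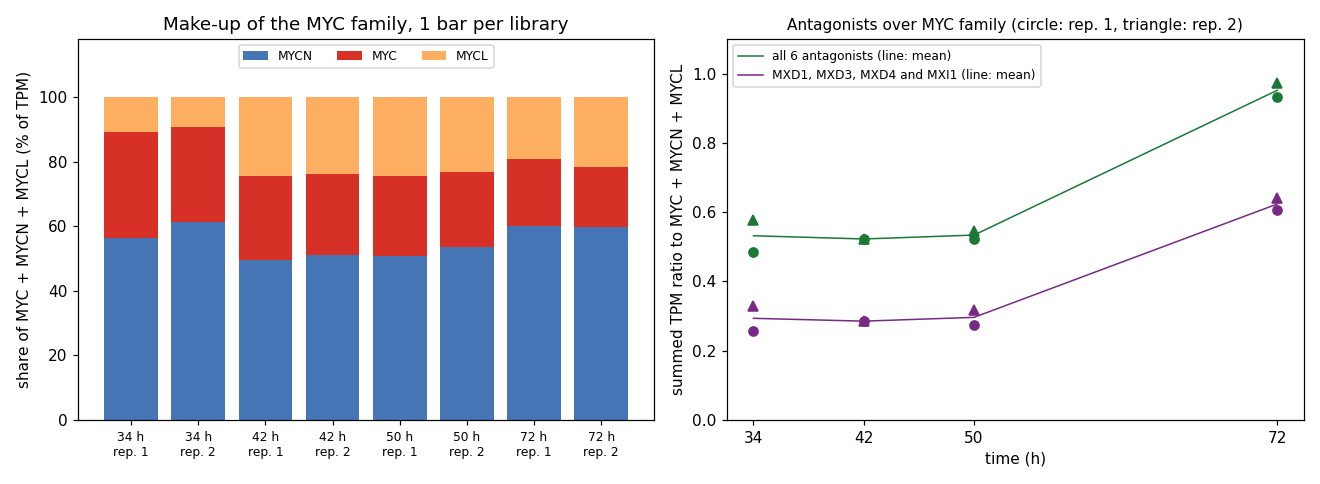
Left, share of MYCN, MYC and MYCL in their summed TPM (vertical axis, %) with 1 bar for each of the 8 libraries; right, summed TPM of the antagonists divided by that of MYC, MYCN and MYCL against time in h, with circles for replicate 1, triangles for replicate 2 and lines through the means. The MYCL share is 9.45% and 10.9% at 34 h and above 19% in every later library, and the ratio of all 6 antagonists is 0.932 and 0.972 at 72 h against at most 0.578 before.

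The genes whose levels followed a member most closely over the 8 libraries were found among 10849 genes with a mean of at least 5 TPM. The libraries share the time course, so these are descriptions. For MYC they were IGSF9B (Pearson r = 0.986), ZFP42 (0.986), a pluripotency marker also called REX1 that went from 113 to 59.0 TPM between 34 and 72 h, and RCC2 (0.985). MYCN was followed by MAIP1 (r = 0.950) and COX18 (0.946). For MYCL they were SCD (r = 0.989), a fatty acid desaturase, WNT5B (0.989), a WNT ligand, and CNIH3 (0.985). WNT5B averaged 1.30, 47.5, 46.7 and 14.5 TPM at 34, 42, 50 and 72 h, with the 2 middle times highest, as for MYCL. MXD4 was followed by AC055839.2 (r = 0.982) and DTNBP1 (0.977). For MXI1 they were NUDT11 (r = 0.982), CSTF3 (0.978) and RNPC3 (0.968).

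The related MLX branch uses MLX in place of MAX and responds to glucose, and 1 of its 5 genes was raised at 72 h, 20% against 12.7% of all tested genes. MLXIPL, also called ChREBP, rose and fell within the course: it averaged 18.3, 39.1, 38.5 and 13.5 TPM at the 4 times. Its change was 1.07 ± 0.21 at 42 h (limma, adjusted p = 0.0413) and -1.47 ± 0.21 from 50 to 72 h (limma, adjusted p = 0.00573). The raised gene at 72 h was MLXIP (0.51 ± 0.16, adjusted p = 0.0491, limma), a call lost under 10 alternatives, among them TMM rescaling, quantile normalization, no filter on low values and the loss of any one 34 or 72 h library. TXNIP, a target of this branch that restrains glucose uptake, averaged 14.6 TPM at 50 h against 29.4 TPM at 72 h and was raised over that step (1.00 ± 0.20, adjusted p = 0.0239, limma).

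At 72 h 12.7% of all tested genes were raised and 11.3% lowered. Of 12 coactivators and partners of MYC, 2 were raised, 16.7% of the list, and none lowered. They were the acetyltransferase KAT5 (0.54 ± 0.15, adjusted p = 0.0295, limma) and SKP2 (0.48 ± 0.10, adjusted p = 0.0128, limma), a ubiquitin ligase subunit that marks MYC for turnover. Of 9 genes of MYC protein turnover 2 were lowered and none raised, 22.2% and 0% against 11.3% and 12.7% of all tested genes. They were USP28 and PPP2R5A. USP28, a deubiquitinase that stabilizes MYC, fell from 47.0 to 25.7 TPM (-0.85 ± 0.11, adjusted p = 0.00106, limma). PPP2R5A, a phosphatase subunit that promotes loss of MYC, changed by -0.46 ± 0.12 (limma, adjusted p = 0.027). The coactivator count was 1 with a variance without a mean trend, and the turnover count was 1 with the 34 and 72 h libraries fitted alone. The count of coactivators fell to 0 or 1, and that of turnover genes to 1, when any one 34 or 72 h library was left out.

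Of all tested genes, 12.7% were raised and 11.3% lowered at 72 h. Of 9 SIN3 complex genes 1 was raised and 1 lowered, 11.1% each: RBBP4 was raised (0.37 ± 0.11, adjusted p = 0.0399, limma) and RBBP7 was lowered (-0.36 ± 0.087, adjusted p = 0.0211, limma), and both are histone-binding subunits. Of 8 genes of PRC1.6, the complex of MGA, 2 were raised, 25% of the list: RING1 (0.74 ± 0.17, adjusted p = 0.0156, limma) and PCGF6 (0.47 ± 0.12, adjusted p = 0.0221, limma). Left-out 34 or 72 h libraries brought either count to 0 or 1. The SIN3 count was 1 with TMM rescaling, with quantile normalization and without mitochondrially encoded genes, and 0 with a variance without a mean trend. The PRC1.6 count was 1 with quantile normalization and with the highest row of each symbol.

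Of 18 ribosome biogenesis genes known as targets of MYC 6 were lowered at 72 h, 33.3% against 11.3% of all tested genes. None were raised, against 12.7% of all tested genes. The median change was -0.21, against 0.061 over all tested genes, and 17 of 18 values were below 0. At 42 and 50 h 0 of 18 were called in limma, beside 1.78% raised and 0.792% lowered of all tested genes at 42 h and 3.52% and 2.74% at 50 h, so counts of 0 are near the background. At an unadjusted p under 0.05 the counts were also 0 of 18, beside 2069 and 3068 of 14908. The highest falls among called genes were those of POLR1B, a subunit of RNA polymerase I, from 36.0 to 24.2 TPM (-0.56 ± 0.17, adjusted p = 0.0438, limma), and of the nucleolar factor NOP16, from 63.1 to 45.2 TPM (-0.47 ± 0.13, adjusted p = 0.0291, limma). The other called genes were FBL, RRS1, NOLC1 and DKC1. The count was 0 or 1 when any one 34 or 72 h library was left out, 1 with a variance without a mean trend, and 0 with no filter on low values or under treat against a log2 change of 0.5.

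Of 15 growth and metabolism targets 4 were lowered at 72 h, 26.7% against 11.3% of all tested genes, and 1 was raised, 6.67% against 12.7%. SHMT2, a mitochondrial enzyme of serine and glycine metabolism, went from 289 to 164 TPM (-0.81 ± 0.11, adjusted p = 0.00131, limma), and SRM, which makes spermidine, from 229 to 166 TPM (-0.46 ± 0.13, adjusted p = 0.0348, limma). The raised gene was CCND1, which encodes cyclin D1 and is also a known WNT target: it averaged 77.2, 273, 299 and 300 TPM at the 4 times and was called at 42 h (1.82 ± 0.18, adjusted p = 0.00143, limma). The count of 5 called genes was 3 without the second 34 h or the second 72 h library.

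Among 6 tested genes that MYC is known to repress, 2 were raised at 72 h, 33.3% against 12.7% of all tested genes, and 1 was lowered, 16.7% against 11.3%. CDKN1A, which encodes the cell cycle inhibitor p21, averaged 10.2, 18.4, 23.9 and 20.1 TPM, and at 72 h it was raised by 0.91 ± 0.22 (limma, adjusted p = 0.0211). CDKN1B, which encodes p27, averaged 23.9 TPM at 34 h against 32.4 TPM at 72 h (0.42 ± 0.12, adjusted p = 0.0322, limma). NDRG2 was lowered (-0.63 ± 0.16, adjusted p = 0.022, limma), and these 3 calls fell to 0 or 1 when any one 34 or 72 h library was left out. Among 7 proliferation markers MKI67 was already raised at 50 h (0.48 ± 0.11, adjusted p = 0.0425, limma). At 72 h MKI67 and TOP2A were raised and MCM5 was lowered, 28.6% and 14.3% of the list against 12.7% and 11.3% of all tested genes. The count of 3 was 1 without either 34 h library or the first 72 h library; their part in the changes of the MYC targets was not tested.

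**Figure D4:**
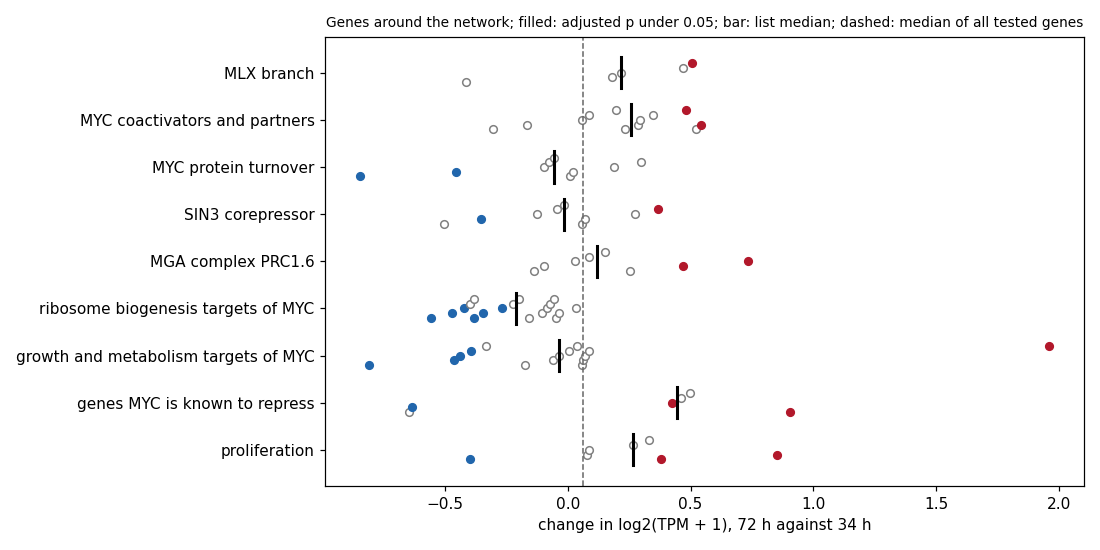
Change at 72 h against 34 h in log2(TPM + 1) (horizontal axis) for each tested gene of 9 lists around the network; 1 point is 1 gene, filled red where raised and filled blue where lowered at an adjusted p of 0.05, the black bar is the median of the list and the dashed line the median of all tested genes (0.061). The ribosome biogenesis genes have a median of -0.21 with 17 of 18 below 0, and CCND1 stands alone at 1.96.

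Of 8 listed antisense, neighbouring and pseudogene transcripts 1 had a row, the MYCL pseudogene MYCLP1, which was at 0.174 TPM or lower in every library.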

How the data were processed

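RNA levels were taken as TPM (length-scaled transcript abundance) in the 1 table deposited by the authors, with 1 column for each of 8 libraries and 0 columns left unused. The submitters' processing notes name Salmon 1.9.0 and GRCh38; the annotation and strand setting are not given in the sources used here. TPM keeps no depth, so none was computed. TPM of rows with the same symbol were summed, giving 35940 symbols from 37951 rows, and the 14908 genes that reached 1 TPM in 2 or more libraries were tested. limma 3.58.1 in R 4.3.3 was fitted to log2(TPM + 1) of all 8 libraries with 1 mean per time point and a mean-variance trend, leaving 4 residual degrees of freedom. Tests were two-sided, with Benjamini-Hochberg adjustment over all tested genes in each of 5 contrasts, and the script was tested on simulated data. A change on this scale understates that of genes with low values.

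The network genes and the lists were chosen with earlier results of these data known. Named beside them are, per list, up to 2 called genes with the highest rise and 2 with the highest fall at 72 h, and, for MYC, MYCN and each gene called by the F-test, the 3 genes with the highest Pearson r, of which some are not reported here. MLXIPL, TXNIP, the proliferation and other marker genes and the 4 further ribosome biogenesis genes were named after their values were seen. The labels give the replicate number as a batch, which pairs the libraries: replicate differences correlated at 0.0949, 0.195 and 0.142 among 34, 42 and 50 h and at -0.0445, -0.0779 and -0.104 with 72 h. Alternatives were another pseudocount, other filters, 3 scalings, another variance model, the replicate block, a fit of the compared times only, limma's treat, the highest row of a symbol and each library left out. Positions are from GENCODE release 29 and promoters from RefSeq GRCh38.p14.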

Additional observations from a re-analysis of the deposited data

How the results depend on the processing

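Of 945 refits of the 50 changes of single genes (10 genes, 5 contrasts), 876 kept their direction and their side of the threshold, 32 lost a call, 4 gained one and 33 changed sign, all 33 in changes that were not called. The counts of called genes depended on the settings. With no filter on low values they were 0 at 42 h, 0 at 50 h, 1 at 72 h, 0 from 50 to 72 h and 0 over the 4 times. Under limma's treat against a log2 change of 0.5 they were 0 at 42 h, 0 at 72 h and 0 from 50 to 72 h, and with the compared time points fitted alone 0 at 42 h and 0 from 50 to 72 h. A variance without a mean trend left 2 over the 4 times, and TMM rescaling and quantile normalization left 3. The replicate block gave 2 from 50 to 72 h, MXD4 and MYC, and changed no other call of the 10 genes. With 1 library left out the count ran from 1 to 4 at 72 h, from 0 to 1 from 50 to 72 h and from 1 to 4 over the 4 times. Counts of the lists at 72 h with no filter were 0 for the MLX branch, 1 for coactivators, 0 for SIN3, 1 for PRC1.6, 0 for ribosome biogenesis, 3 for growth, 1 for repressed genes and 1 for proliferation; under treat they were 0 for these lists and for turnover, except 1 for growth. The cause was not tested.

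Signs turned at 42 h for MXD3 with TMM rescaling (-0.0067) and quantile normalization (-0.018) and for MNT with quantile normalization (-0.011), at 72 h for MGA with TMM rescaling (-0.048), quantile normalization (-0.11) and without mitochondrially encoded genes (-0.0026), and from 42 to 50 h for MYCN with quantile normalization (-0.0063). With 1 library left out, changes at 42 h ran from -0.61 to 0.085 for MAX, -0.49 to 0.51 for MXD3, -0.0071 to 0.26 for MXD4 and -0.12 to 0.16 for MNT. At 50 h they ran from -0.24 to 0.0088 for MXD1, -0.016 to 0.35 for MXD3, -0.11 to 0.071 for MXD4, -0.31 to 0.56 for MXI1, -0.061 to 0.29 for MNT and -0.11 to 0.018 for MGA. From 42 to 50 h they ran from -0.0061 to 0.090 for MYCN, -0.14 to 0.059 for MYCL, -0.50 to 0.077 for MAX, -0.065 to 0.11 for MXD1, -0.34 to 0.66 for MXD3 and -0.081 to 0.27 for MNT. For MGA they ran from -0.045 to 0.053 at 72 h and from -0.014 to 0.12 from 50 to 72 h. With 2 libraries per time point and unknown depth, small changes of genes near 1 TPM such as MXD1 could not be resolved.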
